A study of Mus musculus with 10 samples.

Results

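The sterol and fatty acid synthesis genes described here are 35 genes, named by symbol, that encode the factors controlling lipid synthesis (3 regulators), the steps from acetyl-CoA units to cholesterol (19 genes, the sterol arm) and the steps that make, desaturate and elongate fatty acids (13 genes, the fatty acid arm). All 35 were found among the 35667 genes counted, and all 35 had enough counts to be tested. Their messenger RNA was measured by RNA sequencing of mouse aorta in 10 libraries, 5 labelled Ovgp1 knockout (KO) and 5 labelled wild type (WT), from C57BL/6 mice aged 12 weeks. The study's title concerns Ovgp1, which encodes a secreted oviductal glycoprotein, and remodelling of the vessel wall in hypertension. The titles of all 5 KO libraries name Ovgp1, while the genotype field names Ovgp1 for KO replicate 1 and Ovgp2 to Ovgp5 for KO replicates 2 to 5. The labels do not give the allele, the sex or the stretch of aorta taken, and none says whether each library is a different animal.

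Cholesterol is built from acetyl-CoA through mevalonate, isoprenoid units, squalene and lanosterol, and fatty acids are built from acetyl-CoA through malonyl-CoA by fatty acid synthase, then desaturated and elongated. The SREBP transcription factors switch on both sets of enzymes. SREBP-2, the product of Srebf2, is known mainly for the sterol genes and SREBP-1, the product of Srebf1, for the fatty acid genes, and Insig proteins hold their precursors in the endoplasmic reticulum when sterols are plentiful. Fat cells around the aorta make fatty acids at high rates, whereas most cells of the vessel wall need sterol chiefly for their membranes.

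Both the label check and the agreement between libraries bear on each result. The libraries labelled KO had 480 to 549 counts of Ovgp1, against 48 to 101 in those labelled WT, so the targeted gene goes against the label and KO below means the libraries so labelled. The 5 KO libraries were nearly identical: comparing gene counts pairwise gave a chi-square per degree of freedom of 1.77 to 3.25 in KO and 11.0 to 154 in WT, where a value of 1 would be pure counting error. Total counts were 24434745 to 26694590 in KO and 21242030 to 24396394 in WT, and mitochondrial genes took 7.61% to 7.88% of them in KO and 6.75% to 16.2% in WT. A gene is said to have risen or fallen when its Benjamini-Hochberg adjusted p was under 0.05 in the edgeR quasi-likelihood test of 5 KO against 5 WT libraries. Because p-values from that test lean on a KO spread that may be technical, a second edgeR fit with the KO counts summed into 1 sample stands beside it. Levels are given in CPM, each library's counts scaled to one common total with TMM.

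The 250 bases before the annotated start are shown for the 1 gene whose window held the sterol regulatory element searched for (Hmgcs1), for Sc5d, which rose in KO, for Mvk, whose window held the CCAAT box 5 times, and for 2 fatty acid genes that varied widely among WT libraries (Fasn and Acly). All 5 windows lie outside the gene as GENCODE M21 annotates it. The runs are RefSeq sequences of build GRCm38.p6, written 5′ to 3′ along the gene. Capitals mark matches, on either strand, to the sterol regulatory element TCACNCCAC, the CCAAT box (CCAAT, or ATTGG on the other strand) and the GC box (GGGCGG, or CCGCCC on the other strand).
Hmgcs1, chr13:119690101-119690350, + strand: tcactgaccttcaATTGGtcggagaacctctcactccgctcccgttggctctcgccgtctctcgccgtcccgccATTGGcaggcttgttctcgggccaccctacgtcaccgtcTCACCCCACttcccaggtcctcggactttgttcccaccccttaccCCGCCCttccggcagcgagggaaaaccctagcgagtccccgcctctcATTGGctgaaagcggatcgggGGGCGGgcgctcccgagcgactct
Sc5d, chr9:42264301-42264550, - strand: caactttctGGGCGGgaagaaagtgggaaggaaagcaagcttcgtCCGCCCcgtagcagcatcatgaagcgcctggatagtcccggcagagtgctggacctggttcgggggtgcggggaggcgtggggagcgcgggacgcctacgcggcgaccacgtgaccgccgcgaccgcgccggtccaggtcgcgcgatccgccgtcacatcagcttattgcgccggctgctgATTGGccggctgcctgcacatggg
Mvk, chr5:114444019-114444268, + strand: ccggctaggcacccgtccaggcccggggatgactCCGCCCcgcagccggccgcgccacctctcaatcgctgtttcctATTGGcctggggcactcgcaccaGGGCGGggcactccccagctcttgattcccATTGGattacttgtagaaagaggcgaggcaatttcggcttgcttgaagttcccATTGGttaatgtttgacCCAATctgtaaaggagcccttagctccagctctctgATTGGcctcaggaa
Fasn, chr11:120824548-120824797, - strand: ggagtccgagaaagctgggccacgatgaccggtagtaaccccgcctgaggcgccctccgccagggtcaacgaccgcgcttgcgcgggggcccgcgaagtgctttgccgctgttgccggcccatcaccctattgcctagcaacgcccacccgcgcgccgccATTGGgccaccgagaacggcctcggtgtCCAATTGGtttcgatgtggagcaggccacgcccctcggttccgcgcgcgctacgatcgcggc
Acly, chr11:100528001-100528250, - strand: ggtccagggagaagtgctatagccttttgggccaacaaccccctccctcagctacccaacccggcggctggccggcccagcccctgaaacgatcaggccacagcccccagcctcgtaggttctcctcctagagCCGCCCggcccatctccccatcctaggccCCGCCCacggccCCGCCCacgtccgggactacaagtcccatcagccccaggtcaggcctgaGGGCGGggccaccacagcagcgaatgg
The sterol regulatory element, which SREBPs are known to bind, was in the form TCACNCCAC in 1 of 15 sterol genes with a window, in 0 of 10 fatty acid genes and in 0 of 3 regulators, against 1.05% of 32851 mouse windows and 1.30% of 10978 tested genes. In Hmgcs1 its first base lay at position -137 on the strand shown, counting the last base before the start as -1. The CCAAT box, bound by the factor NF-Y, was in 14 of 15 sterol genes, 6 of 10 fatty acid genes and 3 of 3 regulators, against 33.8% of windows and 40.0% of tested genes. The GC box, bound by Sp1, was in 14 of 15 sterol genes, 4 of 10 fatty acid genes and 3 of 3 regulators, against 32.7% of windows and 62.0% of tested genes. The motif CACGTG, bound by E-box factors, was in 3 of 15 sterol genes, 1 of 10 fatty acid genes and 1 of 3 regulators, against 6.02% of windows and 9.56% of tested genes, and is not in capitals. In Fasn, CCAATTGG holds a CCAAT box on each strand, with overlapping letters. These are matches of letters only. Other forms of these elements, and bases outside the windows, were not searched, so a gene without a match may still hold a site.

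Of the 35 genes, 9 rose and 2 fell in KO, and 24 did not pass the test. Among all 15710 genes tested, 14.3% were called in the same fit, 6.84% higher (1075 genes) and 7.43% lower (1167 genes). With library totals in place of TMM, a scaling tried after the data were seen, 11 of the 35 were called higher and 0 lower, against 9.94% (1561) and 3.14% (493) of all genes, so the 2 falls depend on the scaling. The sterol arm held 6 of the genes that rose (Idi1, Sqle, Msmo1, Hsd17b7, Sc5d and Dhcr7) and both that fell (Pmvk and Fdft1), the fatty acid arm held 3 that rose (Scd2, Fads1 and Fads2), and no regulator passed. The median log2 difference, KO minus WT, was 0.12 over the sterol arm, -0.31 over the fatty acid arm, 0.22 over the regulators and -0.02 over all tested genes. With KO as 1 sample, 0 of the 35 passed, against 0.0446% of all genes (7 genes), and 5 had an unadjusted p under 0.05, against 3.72% of all genes. Those 5 were Sqle, Sc5d, Hsd17b7, Scd2 and Fads2, each higher in KO. The 5 KO values lay above all 5 WT values for 11 of the 35 genes, against 7.38% of tested genes, and below them for 2, against 7.22%. For a single gene whose groups do not overlap, the exact permutation test over every division of the 10 libraries into 5 and 5, two-sided, gives p = 0.00794, the smallest it can give. That test, like the counts of genes without overlap, takes the 5 KO libraries as separate samples, although they were nearly identical. In bulk tissue a change in the number of cells of a type and a change in RNA per cell cannot be told apart.

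**Figure D1:**
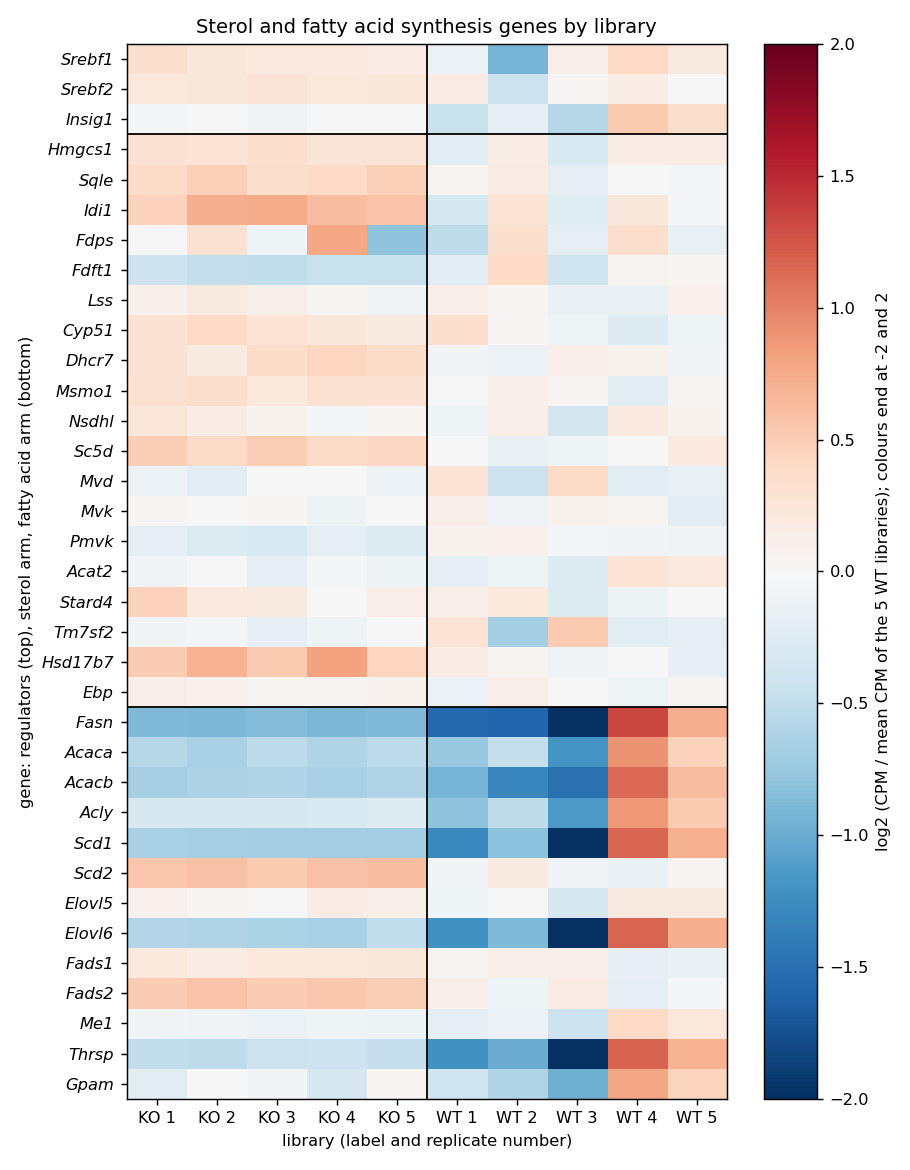
Level of each of the 35 genes in each library as log2 of its CPM over the mean of the 5 WT libraries, KO libraries on the left and WT libraries on the right, with regulators, sterol arm and fatty acid arm from top to bottom. The KO columns look alike, and the widest colour range is among WT libraries in the fatty acid arm, where WT replicate 3 was low and WT replicates 4 and 5 were high.

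Among the regulators, Srebf2 (ENSMUSG00000022463, chr15:82147181-82205379, + strand in GRCm38) had 96.7, 97.9, 99.6, 96.3 and 98.2 CPM in KO replicates 1 to 5, against 93.9, 62.3, 84.7, 92.9 and 84.1 CPM in WT replicates 1 to 5. All KO values were above all WT values, WT replicate 2 was the lowest, and the gene did not pass (log2 difference 0.23, SE 0.09, edgeR adjusted p = 0.128). Leaving out WT replicate 2 lowered the log2 difference of Srebf2 to 0.15 and gave an edgeR adjusted p of 0.0459. With any other library left out, Srebf2 did not pass. Srebf1 had 50.1, 46.8, 45.9, 45.9 and 44.9 CPM in KO, against 37.1, 21.2, 44.3, 52.8 and 45.6 CPM in WT. The KO values were inside the WT range, WT replicate 2 was again the lowest, and the log2 difference was 0.22 (SE 0.19, edgeR adjusted p = 0.487). Insig1, whose product retains the SREBP precursors, had 38.1, 38.8, 37.5, 38.5 and 38.7 CPM in KO, against 28.6, 34.1, 26.3, 55.9 and 49.6 CPM in WT. The KO values lay between WT replicates 1 to 3, which were lower, and WT replicates 4 and 5, which were higher. Its log2 difference was -0.02 (SE 0.19, edgeR adjusted p = 0.953). The ratio of Srebf1 to Srebf2 counts was 0.457 to 0.518 in KO and 0.340 to 0.568 in WT, with WT replicate 2 the lowest.

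At the start of the sterol arm, Hmgcs1 (ENSMUSG00000093930, chr13:119690379-119708260, + strand) encodes the cytosolic HMG-CoA synthase and had 61.5, 61.2, 63.6, 60.2 and 60.8 CPM in KO, against 43.5, 56.3, 40.7, 56.0 and 56.3 CPM in WT. The groups did not overlap, but WT replicates 2, 4 and 5 were close to KO while WT replicates 1 and 3, the libraries with the highest mitochondrial shares (16.2% and 13.2%), were lowest. Without WT replicates 1 and 3 the log2 difference of Hmgcs1 was 0.14, with an edgeR adjusted p of 0.0148. With all 10 libraries Hmgcs1 did not pass (log2 difference 0.28, SE 0.09, edgeR adjusted p = 0.0605, 0.0259 to 0.127 with each library left out in turn). Pmvk (ENSMUSG00000027952, chr3:89454541-89469013, + strand), phosphomevalonate kinase, had 22.9, 21.5, 21.1, 22.8 and 21.4 CPM in KO, against 27.3, 27.5, 25.2, 25.0 and 24.7 CPM in WT. Each KO value was below each WT value, and Pmvk fell by 0.24 on the log2 scale (SE 0.05, edgeR adjusted p = 0.0142; with KO as 1 sample, 95% interval of the fold 0.685 to 1.04 and edgeR adjusted p = 0.999). The call was lost with no low-count filter (edgeR adjusted p = 0.174), with the replicate number as a block (edgeR adjusted p = 0.05) and when library totals were used without TMM, where the edgeR adjusted p was 0.0993. The enzymes on either side of it did not pass, with Mvk, mevalonate kinase, at 18.7 to 20.5 CPM in KO and 17.2 to 21.9 CPM in WT, and Mvd, mevalonate diphosphate decarboxylase, at 6.20 to 7.27 CPM in KO and 5.35 to 9.33 CPM in WT.

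Idi1 (ENSMUSG00000058258, chr13:8885501-8892451, + strand), the isomerase of the basic isoprenoid unit, had 4.99, 6.02, 6.07, 5.56 and 5.44 CPM in KO, against 2.85, 4.40, 3.09, 4.28 and 3.58 CPM in WT. The groups did not overlap, and Idi1 rose by 0.62 on the log2 scale (SE 0.14, 1.54-fold, edgeR adjusted p = 0.013). With KO as 1 sample its fold had a 95% interval of 0.956 to 2.48. Processed pseudogenes resemble Idi1, 1 of them (Gm13502) at 100% over 684 aligned bases, so reads may be divided between them. Fdps, farnesyl diphosphate synthase, was at 0.296 to 0.877 CPM in KO and 0.362 to 0.659 CPM in WT, the lowest of the sterol arm, and its copies such as the pseudogene Gm3571 held 70 to 90 counts in KO and 55 to 101 in WT. Its value is therefore uncertain.

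Fdft1 (ENSMUSG00000021273, chr14:63145150-63179578, - strand), squalene synthase, had 48.5, 46.8, 46.1, 47.5 and 47.8 CPM in KO, against 55.3, 85.8, 49.0, 67.4 and 66.6 CPM in WT. The KO values were just below WT replicate 3 and far below WT replicate 2, and Fdft1 fell by 0.45 on the log2 scale (SE 0.12, edgeR adjusted p = 0.0309; with KO as 1 sample, 95% interval of the fold 0.463 to 1.15 and edgeR adjusted p = 0.999). Of its exon bases, 18.3% (774) overlap Ctsb, a cathepsin gene on the other strand with 23974 to 26384 counts in KO and 18135 to 28917 in WT, WT replicate 2 again the highest, so reads of the pair cannot be told apart without strand. The call was lost with no low-count filter (edgeR adjusted p = 0.162), with library totals in place of TMM (edgeR adjusted p = 0.104) and with the replicate block (edgeR adjusted p = 0.0547). It was also lost when any 1 KO library, WT replicate 4 or WT replicate 5 was left out (edgeR adjusted p from 0.00545 to 0.0734 over all libraries left out in turn).

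Sqle (ENSMUSG00000022351, chr15:59315077-59331192, + strand), squalene epoxidase, had 24.5, 26.1, 24.0, 24.7 and 26.1 CPM in KO, against 19.5, 21.0, 16.3, 18.8 and 18.3 CPM in WT. Every KO value was above every WT value, and Sqle rose by 0.42 on the log2 scale (SE 0.07, 1.34-fold, edgeR adjusted p = 0.00293; with KO as 1 sample, 95% interval of the fold 1.04 to 1.72 and edgeR adjusted p = 0.999). The next enzymes, Lss, which closes the sterol ring, and Cyp51, which removes the first methyl group, were at 18.7 to 22.0 and 21.2 to 24.5 CPM in KO, and at 17.5 to 21.4 and 15.5 to 23.5 CPM in WT, and did not pass. Msmo1, a methylsterol oxidase, which is named here after its values were seen, rose by 0.29 on the log2 scale (SE 0.06, edgeR adjusted p = 0.012), with 30.1 to 33.0 CPM in KO and 22.1 to 27.7 CPM in WT. With KO as 1 sample the 95% interval of its fold was 0.967 to 1.55.

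The 3 other sterol genes that rose act late in the pathway. Hsd17b7 (ENSMUSG00000026675, chr1:169949535-169969241, - strand), a ketosteroid reductase of the late steps, had 5.74, 6.54, 5.81, 7.06 and 5.44 CPM in KO, against 4.53, 4.19, 3.84, 3.99 and 3.58 CPM in WT. Its groups did not overlap, and it rose by 0.60 on the log2 scale (SE 0.11, 1.52-fold, edgeR adjusted p = 0.00533; with KO as 1 sample, 95% interval of the fold 1.05 to 2.20 and edgeR adjusted p = 0.999). Sc5d (ENSMUSG00000032018, chr9:42251595-42264256, - strand), lathosterol oxidase, had 35.8, 33.1, 35.6, 33.0 and 33.8 CPM in KO, against 25.6, 22.9, 24.0, 25.4 and 28.9 CPM in WT. WT replicate 5 was the WT library nearest to KO, the groups did not overlap, and Sc5d rose by 0.44 (SE 0.07, 1.35-fold, edgeR adjusted p = 0.00178; with KO as 1 sample, 95% interval of the fold 1.07 to 1.71 and edgeR adjusted p = 0.999). Dhcr7 (ENSMUSG00000058454, chr7:143823145-143848410, + strand), which makes cholesterol from its dehydro precursor, had 5.98, 5.56, 6.33, 6.62 and 6.32 CPM in KO, against 4.71, 4.53, 5.39, 5.15 and 4.74 CPM in WT. KO replicate 2 came closest to WT without overlap. Dhcr7 rose by 0.33 (SE 0.09, edgeR adjusted p = 0.0375, 95% interval of the fold with KO as 1 sample 0.888 to 1.78). That call was lost with no low-count filter (edgeR adjusted p = 0.106), with the replicate block (edgeR adjusted p = 0.0889) and when any 1 KO library or WT replicate 1, 2 or 5 was left out (edgeR adjusted p from 0.0285 to 0.0987 over all libraries left out in turn).

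The other sterol genes that did not pass were Nsdhl and Ebp, enzymes of the late steps, Tm7sf2, a sterol reductase, Acat2, the cytosolic acetoacetyl-CoA thiolase, and Stard4, a sterol carrier. Their log2 differences ran from -0.07 (Acat2) to 0.20 (Stard4). Tm7sf2 had the widest WT spread of the sterol arm, at 14.6, 7.53, 17.4, 10.3 and 10.6 CPM in WT, while KO had 10.8 to 12.1 CPM. Its exons share 532 bases with Vps51 on the same strand, and Acat2 has near-identical sequence in Acat3 and in Tcp1. Summed over its 19 genes, the sterol arm came to 387 to 399 CPM in KO and 363, 397, 337, 371 and 379.5 CPM in WT replicates 1 to 5. The highest WT sum, in replicate 2, was within the KO range.

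**Figure D2:**
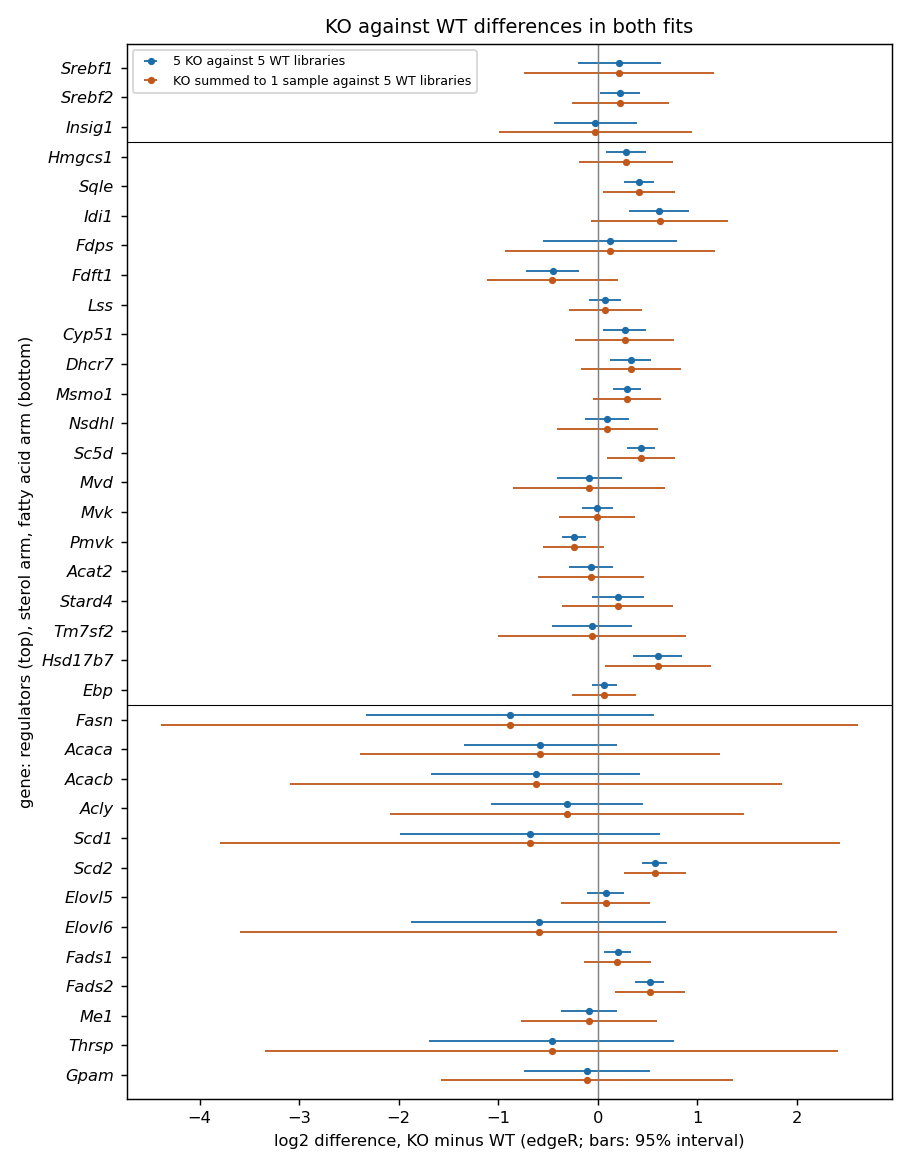
Log2 difference, KO minus WT, of each gene with its 95% interval from edgeR, for 5 KO against 5 WT libraries (blue) and for KO summed to 1 sample against 5 WT libraries (orange). Values are nearly the same in both fits and the intervals are wider in the second, where those of Sqle, Sc5d, Hsd17b7, Scd2 and Fads2 alone lie wholly above 0.

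Some markers of other cell types were also higher in KO, read against the 6.84% of all tested genes that rose in the 5 against 5 fit. With KO as 1 sample none of the fibroblast, Schwann cell or macrophage markers passed in edgeR. Among fibroblast markers 3 of 5 rose (Lum, Dcn and Dpt) and 1 had a negative log2 difference. The summed level of the 5 was 2287 to 2331 CPM in KO, against 1505 to 1973 CPM in WT, with no overlap. Among Schwann cell markers 1 of 5 rose (Mbp), and the sum was 239 to 247 CPM in KO, against 193 to 242 CPM in WT, where WT replicate 2 overlapped KO. Among macrophage markers 2 of 4 rose (Csf1r and Adgre1), whereas Cd68 and Mrc1 had negative log2 differences and did not pass. The macrophage sum was 84.5 to 89.9 CPM in KO, inside the 45.9 to 98.3 CPM of WT. Their part in the differences of sterol genes was not tested.

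Most genes of the fatty acid arm varied widely among the WT libraries and did not differ between groups beyond that spread. Fasn (ENSMUSG00000025153, chr11:120805846-120824547, - strand), fatty acid synthase, had 256, 254, 259, 254 and 256 CPM in KO replicates 1 to 5, against 161, 158, 73.2, 1188 and 784 CPM in WT replicates 1 to 5. WT replicates 4 and 5 were far above KO, WT replicates 1 to 3 were below it, and Fasn did not pass (log2 difference -0.89, SE 0.65, edgeR adjusted p = 0.405, 95% interval of the fold 0.198 to 1.48). Scd1 (ENSMUSG00000037071, chr19:44394455-44407879, - strand), the main stearoyl-CoA desaturase of fat tissue, had 769, 764, 747, 745 and 742 CPM in KO, against 496, 685, 168, 2712 and 1972 CPM in WT. WT replicates 4 and 5 were again above KO and the other WT libraries below it, and its log2 difference was -0.68 (SE 0.59, edgeR adjusted p = 0.486).

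WT replicates 4 and 5 were also the highest, and WT replicate 3 the lowest, in other lipogenic genes. Acaca, the cytosolic acetyl-CoA carboxylase that makes malonyl-CoA for synthesis, had 69.3, 65.9, 71.5, 67.7 and 71.7 CPM in KO, against 61.2, 73.9, 45.1, 193 and 142 CPM in WT. WT replicate 2 was just above KO here, and the processed pseudogene Gm5182, 99.2% identical over 6118 aligned bases, makes the count uncertain. Acacb, the mitochondrial form that restrains fatty acid oxidation, had 42.6, 44.1, 44.2, 43.2 and 44.6 CPM in KO, against 35.2, 27.3, 23.9, 148 and 103 CPM in WT. Elovl6, which elongates palmitate, had 18.9, 18.9, 18.4, 18.2 and 20.2 CPM in KO, against 12.3, 15.4, 3.79, 63.8 and 47.2 CPM in WT. Both placed KO between WT replicates 1 to 3 and WT replicates 4 and 5. Thrsp, a lipogenic factor of fat and liver, had 66.1, 65.9, 69.1, 70.0 and 68.2 CPM in KO, against 40.2, 47.1, 17.1, 211 and 152 CPM in WT. Me1, which supplies NADPH, had 133, 130.3, 126, 129 and 129 CPM in KO, against 120.3, 126, 102, 181 and 158 CPM in WT. The spread of Me1 was narrower but its highest and lowest WT libraries were the same as those of Thrsp. The log2 differences of these 5 genes were -0.58 (Acaca), -0.62 (Acacb), -0.59 (Elovl6), -0.46 (Thrsp) and -0.09 (Me1), and their edgeR adjusted p ran from 0.303 to 0.702. Acly, which makes cytosolic acetyl-CoA from citrate, and Gpam, which starts glycerolipid assembly, also did not pass, at 156 to 162 and 4.86 to 6.21 CPM in KO, and at 88.4 to 357 and 3.09 to 10.4 CPM in WT.

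**Figure D3:**
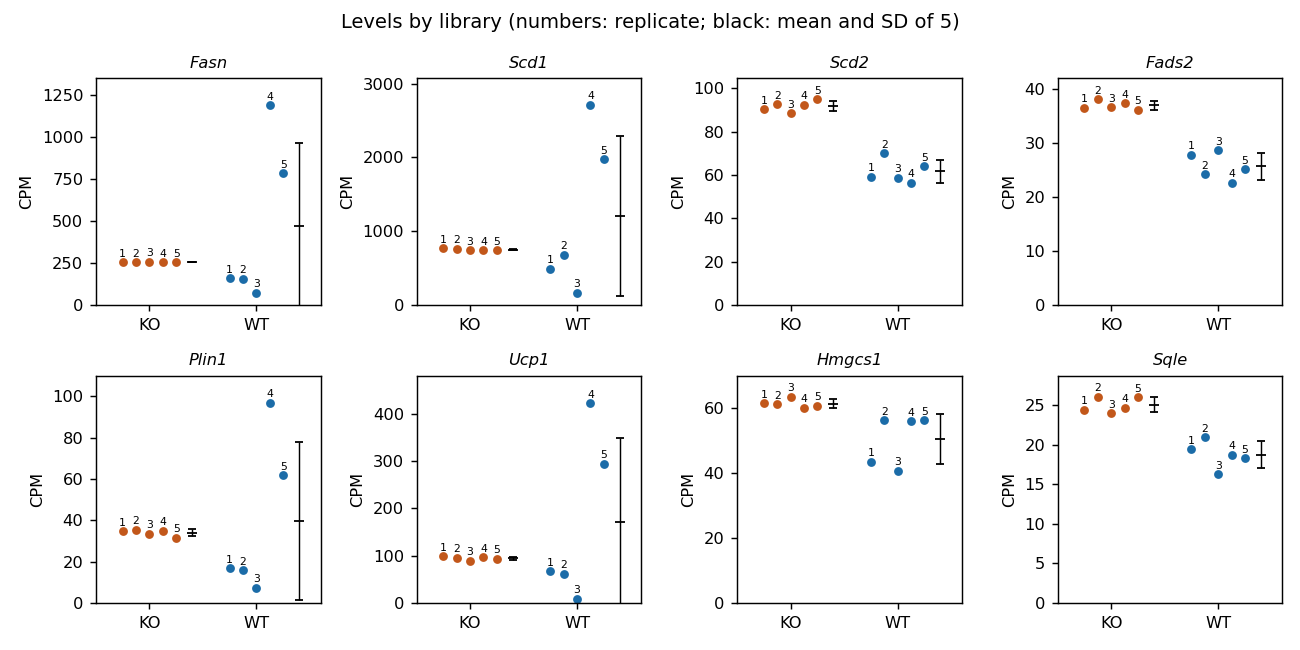
CPM of 8 genes in each library, KO left and WT right, with replicate numbers above the points and black bars for the mean and SD of 5 libraries, cut at 0. Fasn, Scd1, Plin1 and Ucp1 place WT replicates 4 and 5 above KO and WT replicates 1 to 3 below it, whereas Scd2, Fads2, Sqle and Hmgcs1 place all 5 KO libraries above all WT libraries.

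The ratio of the highest to the lowest WT level had a median of 4.04 over the fatty acid arm, 1.38 over the sterol arm and 1.47 over all tested genes. This ratio was above 2 for 8 of 13 fatty acid genes, from 3.35 in Gpam to 16.8 in Elovl6, for 1 of 19 sterol genes (Tm7sf2), and for 25.88% of tested genes. WT replicates 4 and 5 were the highest WT libraries for 10 of 13 fatty acid genes, against 17.61% of tested genes, and WT replicate 3 was the lowest for 10 of 13, against 22.72%. For the sterol arm the counts were 1 of 19 and 7 of 19. These libraries were singled out after their levels were seen, so the counts are a description. All 5 KO values lay within the WT range for 10 of 13 fatty acid genes and 5 of 19 sterol genes. The share of all tested genes with such a place was not taken, so these counts too are only a description.

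**Figure D4:**
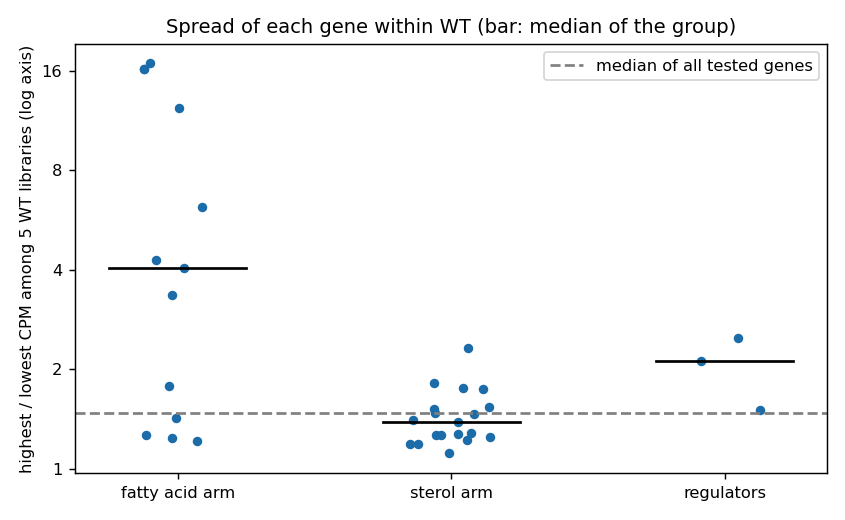
Highest over lowest CPM among the 5 WT libraries for each gene (points, log axis), by arm, with the median of each group (black bar) and of all tested genes (dashed line). The fatty acid arm has a median of 4.04 and reaches 16.8, while the sterol arm has a median of 1.38.

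Most markers of fat cells were, like most fatty acid genes, highest in WT replicates 4 and 5, whereas the lowest WT library differed among white markers. WT replicates 4 and 5 were the highest for 9 of 11 white and 7 of 8 brown adipocyte markers, and WT replicate 3 was the lowest for 5 of 11 white and 7 of 8 brown markers. The exceptions to the first count were Lep, highest in WT replicate 2, Retn, highest in WT replicate 3, and Zic1. The summed level of 11 white adipocyte markers was 1685 to 1736 CPM in KO, against 1446, 1817, 1415, 3315 and 2673 CPM in WT replicates 1 to 5. The sum of 8 brown adipocyte markers was 239.8 to 253 CPM in KO, against 209.9, 243, 76.2, 900.3 and 658 CPM in WT. None of the 11 and none of the 7 tested brown markers passed between groups, and Zic1, a brown adipocyte marker, was at 0 to 0.113 CPM in KO and 0 to 0.181 CPM in WT. Ucp1, the heat-producing uncoupling protein of brown fat, had 98.8, 95.5, 89.7, 96.4 and 93.5 CPM in KO, against 67.1, 61.7, 8.73, 423 and 295 CPM in WT. Plin1, the coat protein of fat droplets, had 34.7, 35.3, 33.4, 34.9 and 31.4 CPM in KO, against 16.8, 15.9, 7.29, 96.8 and 61.7 CPM in WT. Both repeated the order seen for Fasn, and Adipoq, which encodes adiponectin, had 31.2 to 36.2 CPM in KO and 24.5, 16.0, 25.1, 54.0 and 42.8 CPM in WT. The ratio of Fasn to Plin1 counts was 7.20 to 8.14 in KO and 9.60 to 12.7 in WT. The ratio to Plin1 was 21.4 to 23.6 in KO and 23.0 to 43.2 in WT for Scd1, 1.86 to 2.28 in KO and 1.995 to 6.18 in WT for Acaca, and 1.87 to 2.17 in KO and 2.18 to 2.97 in WT for Thrsp. The ratio of Fasn to Ucp1 counts was 2.59 to 2.89 in KO and 2.40 to 8.38 in WT, where WT replicate 3 was the highest. Plin1 and Ucp1 are single members of their marker lists, and ratios to the other markers were not taken. These ratios therefore do not speak for fat cells as a whole, and no share over all genes stands beside them. The summed endothelial markers, at 253 to 262 CPM in KO and 200.2, 499, 141, 592 and 489 CPM in WT, were also high in WT replicates 4 and 5, and in WT replicate 2. The part of these cells in the levels of the fatty acid genes was not tested.

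The direction of the fatty acid arm rested on WT replicates 4 and 5. With both left out, a choice made after seeing the data, 7 of 13 genes were called in edgeR, all higher in KO, against 3 with all libraries. The sterol arm then had 6 called higher and 1 lower. Over all genes the same fit called 9.32% higher (1503) and 10.1% lower (1636) of 16130 tested, or 3139 genes in all, against 2242 with all libraries. Genes that changed sign included Fasn, with a log2 difference of 0.97 (edgeR adjusted p = 0.0211), Acacb with 0.60 (edgeR adjusted p = 0.00456), Acly with 0.48 (edgeR adjusted p = 0.018), and Scd1 with 0.74 (edgeR adjusted p = 0.192). Since these libraries were picked for their levels, that fit shows only how much the sign depends on them. With KO as 1 sample and the same libraries left out, 0 of the 35 genes passed in edgeR.

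Scd2, Fads1 and Fads2 did not follow the other fatty acid genes. Scd2 (ENSMUSG00000025203, chr19:44293674-44306864, + strand), a stearoyl-CoA desaturase expressed widely outside fat and liver, had 90.4, 92.7, 88.4, 92.6 and 94.9 CPM in KO, against 59.3, 70.0, 58.8, 56.6 and 64.0 CPM in WT. WT replicate 4, which had the most Scd1, had the least Scd2, and every KO value was above every WT value. Scd2 rose by 0.57 on the log2 scale (SE 0.06, 1.49-fold, edgeR adjusted p = 0.000178; with KO as 1 sample, 95% interval of the fold 1.20 to 1.84 and edgeR adjusted p = 0.847). The adjusted p of Scd2 ran from 2.44e-05 to 0.00121 with each library left out in turn. Scd1 and Scd2 lie close together on chromosome 19 and share 94.7% identity over 624 aligned bases, so some reads could fall to either. The ratio of Scd1 to Scd2 counts was 7.82 to 8.50 in KO, against 8.36, 9.78, 2.85, 47.9 and 30.8 in WT replicates 1 to 5.

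Fads2 (ENSMUSG00000024665, chr19:10062765-10101746, - strand) and Fads1 (ENSMUSG00000010663, chr19:10182888-10196877, + strand), named here after their values were seen, lie close together on chromosome 19 and encode the desaturases that make long polyunsaturated fatty acids. Fads2 had 36.6, 38.1, 36.6, 37.4 and 36.2 CPM in KO, against 27.9, 24.2, 28.7, 22.7 and 25.2 CPM in WT. The groups did not overlap, and Fads2 rose by 0.52 on the log2 scale (SE 0.07, 1.44-fold, edgeR adjusted p = 0.000618; with KO as 1 sample, 95% interval of the fold 1.12 to 1.83 and edgeR adjusted p = 0.999). Fads1 had 97.9, 93.9, 98.7, 97.8 and 99.4 CPM in KO, against 87.8, 91.9, 91.8, 75.9 and 77.4 CPM in WT. KO replicate 2 and WT replicates 2 and 3 nearly met, and Fads1 rose by 0.20 (SE 0.06, edgeR adjusted p = 0.0494). That call was lost when any 1 KO library or WT replicate 1, 4 or 5 was left out. It was also lost with the replicate block (edgeR adjusted p = 0.0961). With KO as 1 sample the log2 difference of Fads1 was 0.199, and the call was lost there too. Elovl5, the elongase of the same polyunsaturated products, had 62.3 to 68.2 CPM in KO and 49.1 to 69.9 CPM in WT and did not pass.

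Levels were compared between genes per kilobase of merged exon. Scd1 had 154 CPM per kilobase in KO and 247 in WT, the highest of the 35 genes, followed in KO by Me1 with 33.6 CPM per kilobase in KO and 35.7 in WT, Thrsp with 31.0 CPM per kilobase in KO and 42.7 in WT, Acly with 29.9 CPM per kilobase in KO and 36.9 in WT and Fasn with 23.4 CPM per kilobase in KO and 43.2 in WT. In the sterol arm, Hmgcs1 had 13.4 CPM per kilobase in KO and 11.0 in WT, Pmvk 12.8 CPM per kilobase in KO and 15.1 in WT, and Fdft1 11.2 CPM per kilobase in KO and 15.3 in WT. Srebf2 had 13.6 CPM per kilobase in KO and 11.6 in WT, and Srebf1 had 8.29 CPM per kilobase in KO and 7.13 in WT.

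Of 48 other genes of these pathways, 47 were tested, 1 rose and 3 fell in the 5 against 5 fit, and the 4 calls were not above the 14.3% of all tested genes. With the KO counts summed, each of these 4 missed the threshold. Cyb5r3, a reductase that passes electrons to lipid desaturases, rose by 0.21 on the log2 scale (edgeR adjusted p = 0.0157; with KO as 1 sample, 95% interval of the fold 0.928 to 1.45 and edgeR adjusted p = 0.999), with 914 to 937 CPM in KO and 761 to 872 CPM in WT. Its groups did not overlap. Mlxip, a glucose-responsive transcription factor, fell by 0.36 (edgeR adjusted p = 0.000618; with KO as 1 sample, 95% interval of the fold 0.643 to 0.938 and edgeR adjusted p = 0.999), with 73.6 to 80.0 CPM in KO and 92.4 to 104 CPM in WT. Nr1h3, the sterol-sensing receptor LXR alpha, fell by 0.31 (edgeR adjusted p = 0.0183; with KO as 1 sample, 95% interval of the fold 0.616 to 1.05 and edgeR adjusted p = 0.999), with 19.3 to 21.9 CPM in KO and 21.5 to 28.2 CPM in WT. Its call was lost without KO replicate 3 or 4 (edgeR adjusted p up to 0.0545). Vldlr, a receptor for triglyceride-rich particles, fell by 0.20 (edgeR adjusted p = 0.0309; with KO as 1 sample, 95% interval of the fold 0.693 to 1.09 and edgeR adjusted p = 0.999), with 99.3 to 104 CPM in KO and 109 to 134 CPM in WT. Its call was lost when any 1 KO library, WT replicate 1 or WT replicate 5 was left out (edgeR adjusted p up to 0.0851). Of 9 triglyceride assembly and lipolysis genes none passed, and all 9 had WT replicates 4 and 5 as their highest WT libraries. Of the 13 genes of SREBP processing and sterol sensing, 0 rose and 2 fell (Nr1h3 and Vldlr), and 7 had positive log2 differences. Over all tested genes 6.84% rose and 7.43% fell.

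The aorta label was checked against smooth muscle markers. Acta2, smooth muscle actin, had 22404 to 22968 CPM in KO and 25020.0, 18266, 24697, 14722 and 16639 CPM in WT replicates 1 to 5, and Myh11, smooth muscle myosin heavy chain, had 9032 to 9124 CPM in KO and 9616, 8714, 9701, 7229 and 7949 CPM in WT. Both were lowest in WT replicates 4 and 5, where most fatty acid genes were highest. The smooth muscle markers Tagln and Cnn1 were also lowest in these libraries, whereas Smtn was lowest in WT replicate 2. Tagln had only 20.8 to 23.5 CPM in KO and 22.3 to 29.3 CPM in WT, ranges that overlap. These levels were far below those of Acta2 and Myh11, and the reason was not tested. Tagln fell in KO in the 5 against 5 fit (log2 difference -0.25, edgeR adjusted p = 0.0458).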

How the data were processed

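Each of the 10 aorta libraries has a deposited table of raw read counts, 1 whole number per gene, and the labels' titles give the groups. The submitters' processing notes list Bowtie 0.12.2 and, with no role, mm8 and mm9 as builds. How the authors counted reads, on which annotation and with what strand setting is not given in the sources used here. Identifiers were matched to GENCODE M21 (GRCm38), which held 35562 of 35667 genes. Gene coordinates and exon lengths come from that annotation, not from the authors' build.

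Depth was 21242030 to 26694590 counts per library. Pairs of KO libraries had a chi-square per degree of freedom of 1.77 to 3.25, where 1 would be pure counting error. The SD of the KO libraries may therefore cover technical spread only. The test was edgeR's robust quasi-likelihood F test (edgeR 4.0.16 in R 4.3.3) with TMM scaling, filterByExpr (minimum count 10, minimum total 15) and Benjamini-Hochberg adjustment over the 15710 genes kept, at 0.05. The SE is the log2 difference over the square root of F. The fit with summed KO counts used the same genes and takes its spread from the WT libraries. P-values measure only the spread between these libraries, which may be technical. Single genes were also tested by exact permutation. Near-identical copies were searched with BLAST 2.17.0 (at least 300 aligned bases at 90% identity) among annotated transcripts. Alternatives were DESeq2 1.42.0, limma 3.58.1 (voom with sample weights), DESeq2 size factors, library totals, no low-count filter, a replicate block and libraries left out.

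Genes given in every library were the 3 regulators and, in each arm, the 6 with the greatest absolute log2 difference and the 3 with the highest level per kilobase. From each other pathway list up to 4 genes past the threshold were named. Some genes of the pathway and marker lists are not reported here, and counts and sums leave them out. The genes and lists were chosen with earlier results of these data known. Same-numbered libraries did not deviate together (correlations of -0.052 to 0.066), so the numbers were not taken as pairs. RefSeq promoter windows were matched for 28 of 35 genes, and not for Fads1, Fdft1, Fdps, Scd1, Scd2, Sqle and Stard4.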

Additional observations from a re-analysis of the deposited data

Results flagged for a closer look

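In 3 of 70 groups of 5 libraries, 1 library stood apart from the other 4 by more than 0.71 of the group's range, and chance alone gives such a gap in about 5% of groups. All 3 were in KO, where the whole range is narrow. Mvk was lowest in KO replicate 4, at 18.68 CPM. Acly was highest in KO replicate 5, at 162.3 CPM. Fads1 was lowest in KO replicate 2, at 93.91 CPM.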

How the results depend on the processing

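None of the 11 calls changed direction under any setting tried, and 17 of the 24 genes that did not pass changed sign under at least 1. With KO as 1 sample, 0 sterol, 0 fatty acid and 0 regulator genes and 7 of all genes passed, so each of the 11 calls was lost. With the replicate block, 5 sterol genes passed, all higher, along with 1319 of all genes, Dhcr7, Fads1, Fdft1 and Pmvk lost their calls, and the sign changed to 0.037 (Insig1), 0 (Mvk), 0.058 (Thrsp) and 0.014 (Gpam). The labels do not say whether same-numbered libraries belong together. Of the 5 KO libraries, 3 correlated best with their own number, at only 0.052 to 0.066. With limma-voom, 10 fatty acid genes (7 lower), 2 regulators and 6477 of all genes passed, and signs changed to 0.044 (Mvd), 0.14 (Mvk), 0.11 (Tm7sf2) and -0.055 (Elovl5). Without WT replicates 1 and 3, which had the highest mitochondrial shares, 5 fatty acid genes (2 lower) and 4386 of all genes passed, with -0.051 (Fdps), -0.019 (Nsdhl), 0.19 (Mvd), 0.085 (Mvk), 0.31 (Tm7sf2) and -0.026 (Elovl5). With no low-count filter Dhcr7, Fdft1 and Pmvk lost their calls and Cyp51, Hmgcs1 and 1 regulator (Srebf2) passed, with 0.024 (Insig1) and 0.047 (Mvk). With library totals in place of TMM, which moved the median of all genes to 0.0529, Fdft1 and Pmvk lost their calls and Cyp51 and 1 regulator (Srebf2) passed, with 0.041 (Insig1), 0.0026 (Mvd), 0.076 (Mvk), 0.0043 (Acat2) and 0.030 (Tm7sf2). With WT replicates 4 and 5 left out, added after seeing the data, 7 fatty acid genes and 1 regulator (Insig1) passed and Dhcr7, Fads1 and Fdft1 lost their calls, with 0.37 (Insig1), 0.11 (Acat2), 0.97 (Fasn), 0.20 (Acaca), 0.60 (Acacb), 0.48 (Acly), 0.74 (Scd1), 0.84 (Elovl6), 0.16 (Me1), 0.96 (Thrsp) and 0.53 (Gpam). Mvk changed to 0.0044 with DESeq2 size factors and to 0.011 in DESeq2. With each library left out in turn, 0 to 1 regulators and 1287 to 2678 of all genes passed, against 2242, and the genes that changed sign ran from -0.13 to 0.14 (Insig1), -0.10 to 0.28 (Fdps), -0.16 to 0.027 (Mvd), -0.053 to 0.044 (Mvk), -0.13 to 0.012 (Acat2), -0.18 to 0.11 (Tm7sf2), -0.49 to 0.029 (Acly), -0.18 to 0.032 (Me1), -0.73 to 0.082 (Thrsp) and -0.27 to 0.18 (Gpam). The cause of these shifts was not tested. The spread of the 5 WT libraries limits the fatty acid genes, and few counts limit Fdps.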
